A study of Homo sapiens with 12 samples.

Results

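The comparison described here is between A549 cells that stably carried a short hairpin RNA against FXR (shFXR) and A549 cells that carried a control hairpin (shControl), in cells that had been given a sham treatment in place of ionizing radiation. It covers 6 of the 12 libraries of the study, 3 for each line, and every gene of the deposited count table. The 6 other libraries came from the same lines 3 days after ionizing radiation, and they are used below as a separate measurement of the difference between the lines. A549 is an established human lung adenocarcinoma line with features of the alveolar epithelium. The labels give the genotype as WT for the shControl cells and as FXR knockdown for the shFXR cells, and the study's design text calls the libraries of a group biological replicates. The sources used here do not give the hairpin sequences, whether a line is a clone or a pool, the radiation dose or the culture time of sham cells. Each hairpin is represented by 1 line, so the effect of the knockdown and any other difference between the lines cannot be told apart.

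FXR, the farnesoid X receptor, is a nuclear receptor that binds bile acids and, usually as a partner of the retinoid X receptor, acts on the promoters of target genes. In the liver and intestine it is known for holding back bile acid synthesis, for inducing bile acid export and for acting on lipid, glucose and fibrinogen genes, and it is also known to restrain inflammatory gene expression. In lung tissue it is found at a low level, and some lung cancers express it. A short hairpin RNA is processed into a small RNA that directs the breakdown of the matching messenger RNA.

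The sham libraries held between 17352340 and 18860553 counts each, and 16053 of the 58735 genes had enough counts to be tested. In a principal component analysis of the 6 libraries, the first axis (63.6% of the variance) set the lines apart. The second axis held 13.3% and set shControl library 2 (-31.1) apart from shControl libraries 1 and 3 (20.5 and 9.01). Counts of mitochondrial genes made up 12.9%, 16.8% and 13.6% of the shControl libraries and 10.2%, 10% and 11.2% of the shFXR libraries, so the groups did not overlap. Results that lean on shControl library 2 are given with and without it. Levels below are in CPM, the counts of a gene in each 1000000 counts of its library after TMM scaling, and are given in the order of replicates 1, 2 and 3. Differences are log2 fold changes, shFXR minus shControl. Their ± value is an approximate standard error, worked back from the size of the difference and the F statistic of its test. Where a fall ends at few counts, this value can be too small. For the gene SPDEF it was 0.24 in sham and 0.25 in irradiated cells, but 0.45 for the irradiated minus the sham difference. A gene was called higher or lower when its adjusted p in edgeR's quasi-likelihood test, corrected over all tested genes, was below 0.05, and only such genes are said to have risen or fallen. Where a list had 0 to 2 calls in a direction, leaving out a library often moved that count by 1 gene.

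NR1H4, the gene of FXR, spans bases 100473708 to 100564413 of chromosome 12 (hg38, plus strand). The gene had 25.3, 23.3 and 22.3 CPM in the shControl libraries and 5.08, 4.57 and 2.81 CPM in the shFXR libraries. All 3 shFXR libraries lay below all 3 shControl libraries, and the gene fell 5.68-fold (log2 -2.51 ± 0.16, adjusted p = 2.8e-10). Between 385 and 479 raw reads were counted in a shControl library and between 52 and 92 in a shFXR library, so the transcript was reduced but still present. RXRA, which encodes the retinoid X receptor alpha, had a log2 difference of 0.04 ± 0.07 (adjusted p = 0.7).

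Across the genome, 6003 of 16053 tested genes differed between the lines (37.4%), of which 2885 were higher (18.0%) and 3118 lower (19.4%) in shFXR cells. The near balance of these counts hid a difference in size. At least 2-fold, 290 genes were higher (1.81%) and 895 lower (5.58%), at least 4-fold 54 and 242, and at least 8-fold 10 and 69. The median log2 difference was 0.44 among the genes called higher, -0.63 among those called lower and -0.01 over all tested genes. In 46.9% of tested genes the 3 libraries of the lines did not overlap. Counts of called members in the lists below should be read beside the 18.0% higher and 19.4% lower of all tested genes. Scaled by total counts alone, 3820 genes were higher and 2465 lower, which moved the share of higher calls from 48.1% to 60.8%.

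**Figure D1:**
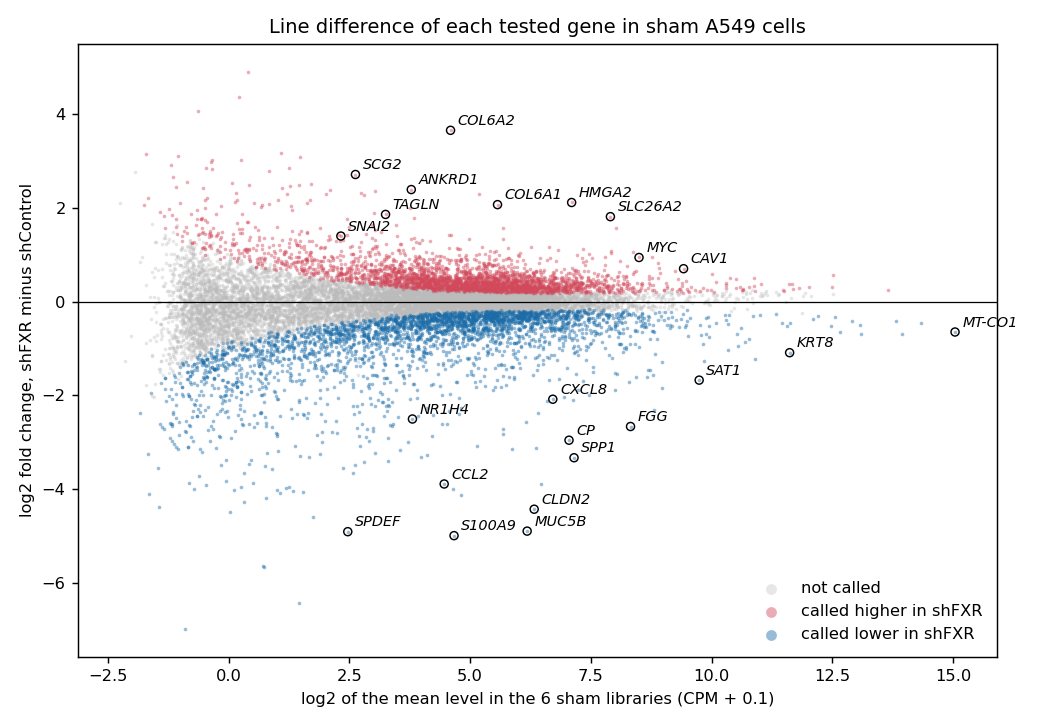
Each point is a tested gene, with the log2 of its mean level over the 6 sham libraries (CPM + 0.1) on the horizontal axis and its log2 fold change, shFXR minus shControl, on the vertical axis, red for genes called higher in shFXR cells, blue for genes called lower and grey for the others. The lower side reaches further, with 242 genes lower by at least 4-fold against 54 higher, and CLDN2, MUC5B and S100A9 lie at the low end among well expressed genes while COL6A2 lies at the high end.

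Among the deepest falls of protein-coding genes with a mean of at least 5 CPM were several genes of secreted and surface proteins of epithelia. S100A9, a calcium-binding protein known from neutrophils and inflamed epithelia, had 68.2, 44.2 and 34.8 CPM in the shControl libraries and 1.49, 1.65 and 1.46 CPM in the shFXR libraries. SPDEF, a transcription factor of mucous cells, had 11.6, 11.6 and 8.39 CPM in the shControl libraries and 0.331, 0.319 and 0.378 CPM in the shFXR libraries. In both genes every shFXR library lay far below every shControl library, and the log2 differences were -5.00 ± 0.31 and -4.91 ± 0.24 (adjusted p = 1.8e-10 and 6.8e-12). CLDN2, a pore-forming tight junction protein, fell 21.6-fold from 153 ± 13.6 to 7.10 ± 0.793 CPM (mean ± SD, n = 3). Others among the 20 largest falls were FCGBP (-4.13 ± 0.30), TCN1 (-3.67 ± 0.33), RARRES1 (-3.88 ± 0.18), PRG4 (-3.55 ± 0.29), SERPINB4 (-3.48 ± 0.45) and TRIM31 (-3.42 ± 0.21), where TCN1 encodes a vitamin B12 carrier, PRG4 lubricin and SERPINB4 a protease inhibitor. SERPINB4 lies next to SERPINB3, whose sequence is nearly the same and which fell by 2.87 ± 0.33, so the split of reads between the pair is uncertain.

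The largest rise at this level was in COL6A2, which encodes a chain of collagen VI, with 3.38, 3.68 and 3.57 CPM in the shControl libraries and 45.1, 45.3 and 43.3 CPM in the shFXR libraries (log2 3.65 ± 0.12, adjusted p = 1.7e-14). COL6A1, the gene of a second chain of the same protein, had 19.1, 17.2 and 18.4 CPM in the shControl libraries and 79.1, 79.3 and 70.7 CPM in the shFXR libraries. The shFXR libraries of both genes lay close together and far above every shControl library. The genes are neighbours on chromosome 21, COL6A1 from 45981737 to 46005050 and COL6A2 from 46098097 to 46132849 of hg38, both on the plus strand. SCG2, which encodes secretogranin II of neuroendocrine granules, rose by 2.71 ± 0.18, and HMGA2, a chromatin protein of embryonic and transformed cells, by 2.11 ± 0.10. HMGA2 was also among the better expressed of these genes, with 47.6, 46.4 and 60.5 CPM in the shControl libraries and 232, 236 and 201 CPM in the shFXR libraries. Further rises among the 20 largest were SHROOM2 (2.31 ± 0.23), NID1 (1.98 ± 0.13), ZBTB16 (1.89 ± 0.16), TAGLN (1.86 ± 0.14), SLC26A2 (1.81 ± 0.19), AKAP12 (1.58 ± 0.12) and MAP2 (1.56 ± 0.10), which encode a regulator of apical actin, a basement membrane linker, a zinc finger repressor, a smooth muscle actin-binding protein, a sulfate transporter, a kinase anchoring protein and a microtubule-associated protein.

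For cell identity, genes shared by epithelia were lower in shFXR cells, and in bulk libraries fewer cells of a type and less RNA in each cell cannot be told apart. Of 20 listed pan-epithelial genes 15 were tested, of which 10 fell, against 19.4% of all tested genes, and 0 rose, with a median log2 difference of -1.04. KRT8 and KRT18, the paired keratins of simple epithelia, fell together by 1.09 ± 0.13 and 1.04 ± 0.13. KRT8 had 3504, 5168 and 4124 CPM in the shControl libraries and 1874, 1782 and 2348 CPM in the shFXR libraries. KRT18 had 1445, 2164 and 1606 CPM in the shControl libraries and 760.2, 739 and 1034 CPM in the shFXR libraries. In both keratins the lowest shControl library was above the highest shFXR library, and shControl library 2 was the highest of the 6. Both genes have many processed pseudogenes, to which some of their reads could have been assigned. KRT19 fell by 1.32 ± 0.11, from 91.4 ± 2.66 to 36.6 ± 3.00 CPM, and the surface mucin gene MUC1 by 0.80 ± 0.15. CDH1, which encodes E-cadherin, the adhesion protein of epithelial junctions, had 116, 83.3 and 94.1 CPM in the shControl libraries and 46.1, 38.8 and 44.7 CPM in the shFXR libraries (log2 -1.18 ± 0.11, adjusted p = 3.8e-08). EPCAM, an epithelial surface adhesion gene, was low in both lines, with 6.07, 4.65 and 5.98 CPM in the shControl libraries and 2.32, 3.08 and 3.51 CPM in the shFXR libraries (log2 -0.91 ± 0.20, adjusted p = 0.0016). KRT7, which is also common to simple epithelia and was picked out after its value was seen, had a log2 difference of 0.05 ± 0.08 (adjusted p = 0.67).

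Of the cell identity lists, that of airway secretory and mucous cells had the lowest median. Of 33 listed genes 16 were tested, and 11 of these fell and 0 rose, 10 of the falls being at least 2-fold, with a median of -2.08. MUC5B, the gel-forming mucin of airway glands, had 209, 102 and 109 CPM in the shControl libraries and 6.68, 3.24 and 4.21 CPM in the shFXR libraries (log2 -4.90 ± 0.32, adjusted p = 4.2e-10). MUC5AC, the gel-forming mucin of surface goblet cells, had 47.6, 21.9 and 23.9 CPM in the shControl libraries and 4.31, 2.55 and 2.81 CPM in the shFXR libraries (log2 -3.28 ± 0.31, adjusted p = 7.4e-08). Both mucins were highest in shControl library 1, and the lines did not overlap in either. The mucin genes are neighbours on chromosome 11, MUC5AC from 1157953 to 1201138 and MUC5B from 1223066 to 1262172 of hg38. AGR2, a protein disulfide isomerase needed to fold mucins, fell 2.85-fold, with 308, 268 and 252 CPM in the shControl libraries and 97.5, 95.9 and 97 CPM in the shFXR libraries. The antiprotease gene SLPI fell 8.71-fold from 148 ± 21.7 to 16.9 ± 3.24 CPM. LCN2, an iron-siderophore binding protein, fell by 3.41 ± 0.17, the tetraspanin gene TSPAN8 by 3.17 ± 0.17 and the adhesion gene CEACAM6 by 2.64 ± 0.24.

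A549 cells also express several plasma proteins that the liver is known for, and these were lower in shFXR cells. Of 32 listed hepatocyte genes 16 were tested, of which 13 fell and 0 rose (median -1.50). FGG, FGA and FGB encode the chains of fibrinogen, the clotting protein, and lie side by side on chromosome 4, from 154562956 (the start of FGB) to 154612967 (the end of FGG). FGG had 735, 469 and 452 CPM in the shControl libraries and 84.8, 86.5 and 89.6 CPM in the shFXR libraries. FGA had 952, 683 and 608 CPM in the shControl libraries and 149, 136 and 168 CPM in the shFXR libraries. FGB had 629, 485 and 449 CPM in the shControl libraries and 165, 147 and 197 CPM in the shFXR libraries. No shFXR library reached the lowest shControl library in any of the 3 genes, and the falls were 2.67 ± 0.14, 2.31 ± 0.14 and 1.62 ± 0.12 (adjusted p = 2.4e-11, 7.8e-11 and 1.7e-09). RBP4, the plasma carrier of retinol, fell by 2.79 ± 0.21.

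Markers of other lung cells gave a mixed picture. Of 13 tested alveolar type 2 genes 6 fell and 1 rose. ERBB3, a receptor of the EGF receptor family, fell by 1.76 ± 0.29 and LPCAT1, an enzyme of surfactant phospholipids, by 0.61 ± 0.06, while the surfactant protein gene SFTPD rose by 0.73 ± 0.26, a call lost without shControl library 1, shFXR library 1 or shFXR library 3. SFTPB, another surfactant protein gene, fell by 4.19 ± 0.50 from a low level, with 35 to 92 counts in a shControl library and 1 to 6 in a shFXR library. NKX2-1, the lung lineage factor, had too few counts to be tested. Of 9 alveolar type 1 genes 3 rose, among them the caveolin genes CAV1 (0.70 ± 0.11) and CAV2 (0.51 ± 0.07), and 1 fell, the growth factor gene VEGFA (-0.66 ± 0.10). CAV1, the coat protein of caveolae, went from 521 ± 45.4 to 847 ± 87.4 CPM (mean ± SD, n = 3) without overlap. Of 11 basal and squamous genes 5 fell, among them SOX2 (-1.66 ± 0.20), ITGB4 (-1.01 ± 0.13) and PERP (-0.54 ± 0.07), and 1 rose, the keratin gene KRT6A (0.91 ± 0.12). Of 15 neuroendocrine and neuronal genes 4 rose and 5 fell, with SCG2 and MAP2 at the upper end and the granin gene CHGB (-1.04 ± 0.23) and the enolase gene ENO2 (-1.08 ± 0.16) among those that fell.

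Markers of leukocytes, erythroid and endothelial cells were mostly at or near 0, and most fibroblast markers were not. Of 12 leukocyte markers 9 had at most 10 counts in every sham library, CD3D, CD3E, MS4A1 and FCGR3A had 0 in all 6, and the pan-leukocyte gene PTPRC had at most 1. The others were CSF1R with at most 11 counts, ITGAM with 25 to 89 counts, and CD14, a lipopolysaccharide co-receptor that epithelial cells can also express. CD14 had 53.8, 51.3 and 32.4 CPM in the shControl libraries and 8.45, 9.72 and 7.82 CPM in the shFXR libraries (log2 -2.40 ± 0.22). All 8 erythroid markers had at most 10 counts, and so did 6 of 10 endothelial markers. The other endothelial markers were KDR with 8 to 19 counts, ESAM with 1 to 12, PECAM1 with 10 to 56 counts in shControl and 0 to 9 in shFXR libraries (log2 -2.47 ± 0.64), and EGFL7 with 1001 to 1126 counts in shControl and 577 to 680 in shFXR libraries (log2 -0.84 ± 0.10). PECAM1 and EGFL7 were called lower, PECAM1 not without shControl library 1 (-1.52). Of 12 fibroblast markers 8 were tested, of which 3 rose (DCN, ACTA2 and COL3A1) and 3 fell (LUM, COL1A1 and FAP), and their summed level was 52.1 to 58.8 CPM in shControl libraries and 62.5 to 78.0 CPM in shFXR libraries. COL1A2, POSTN and MEOX2 had at most 2 counts in any sham library and PDGFRB at most 9, whereas DCN had 177 to 541 and ACTA2 210 to 386 counts. The count of fibroblast markers that fell was 1 without shControl library 1 or shFXR library 1, and 0 without shFXR library 3.

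**Figure D2:**
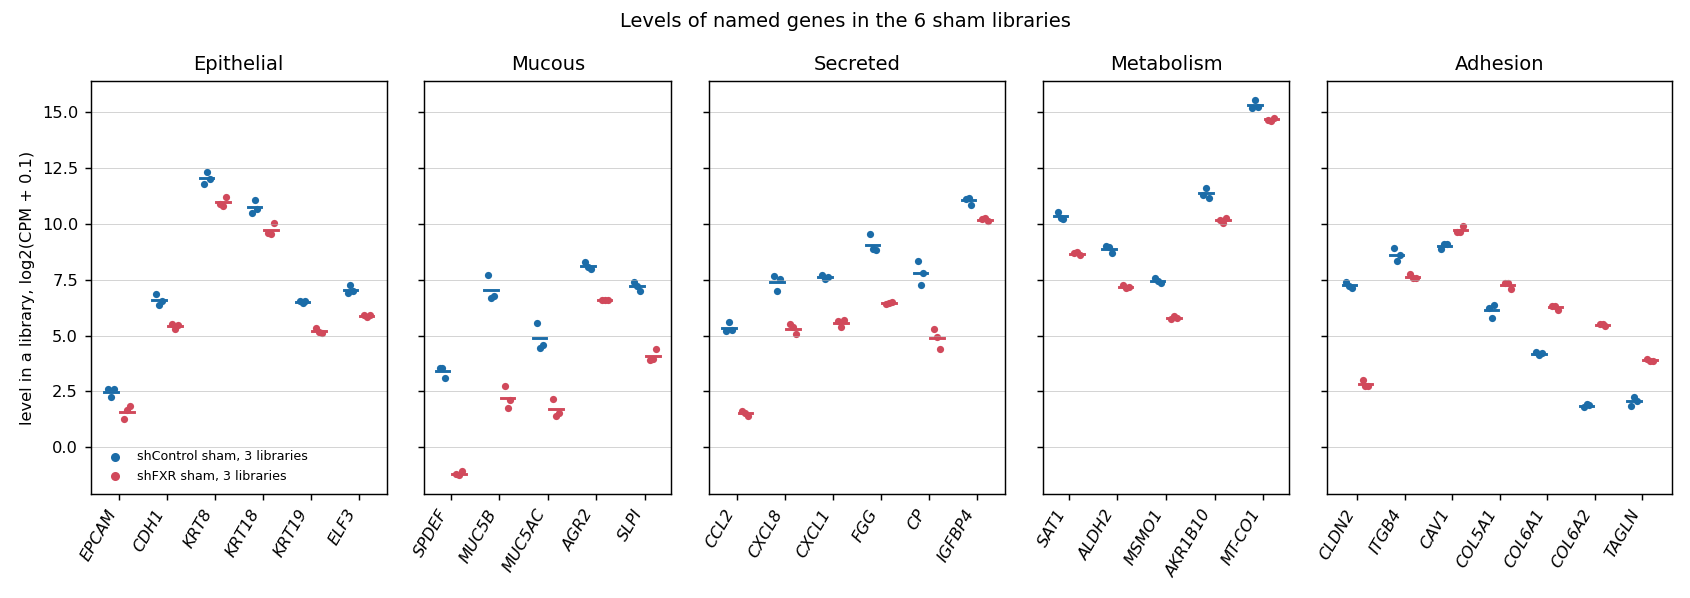
Each dot is the level of a gene in 1 sham library, log2(CPM + 0.1), with blue for the 3 shControl and red for the 3 shFXR libraries and a bar at the mean of the log2 values. Levels should be compared within a gene only, since CPM is not corrected for gene length. The lines do not overlap for any of the genes drawn, with shFXR cells lower for all but CAV1, COL5A1, COL6A1, COL6A2 and TAGLN.

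Chemokines, the secreted proteins that attract leukocytes, were among the groups that fell most uniformly. Of 19 listed genes 12 were tested, of which 11 fell and 0 rose, with a median of -1.47. Their summed level was 854 to 1009 CPM in shControl libraries and 357 to 374 CPM in shFXR libraries. CCL2, which attracts monocytes, had 36.7, 48.5 and 38.2 CPM in the shControl libraries and 2.98, 2.76 and 2.54 CPM in the shFXR libraries (log2 -3.89 ± 0.14, adjusted p = 6.0e-14). CXCL8, which attracts neutrophils, had 199.8, 126 and 183 CPM in the shControl libraries and 45, 41.6 and 33.3 CPM in the shFXR libraries (log2 -2.08 ± 0.14, adjusted p = 7.7e-10). CXCL1 had 211, 185 and 194 CPM in the shControl libraries and 50, 41.2 and 52.1 CPM in the shFXR libraries (log2 -2.04 ± 0.10, adjusted p = 4.1e-12). In these genes the highest shFXR library was below the lowest shControl library, and the spread within a line was small beside the gap. CXCL5, also a neutrophil attractant, fell less, by 0.96 ± 0.07. Some CXCL genes of this cluster, CXCL1, CXCL2 and CXCL3 above all, are close copies of each other, so reads may have been split between them.

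The promoters of 6 of these chemokines are shown because they share a sequence as well as a direction. RefSeq promoters of build GRCh38.p14, the 250 bases before the start of transcription, were available for 8 of the 12 tested chemokines and for 11524 of all tested genes. The letters GGAATTTCC, a form of the site bound by NF-kappaB, were searched on both strands. They were found in 6 of the 8 chemokine promoters, and in 0.399% of all 11524. This sets the chemokine list against all genes, and does not compare genes that fell with genes that did not. Each line gives, 5′ to 3′ in the direction of the gene, the match in capitals with up to 14 bases on either side.
CXCL8: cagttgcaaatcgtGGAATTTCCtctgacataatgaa
CXCL6: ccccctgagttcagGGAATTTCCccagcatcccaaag
CXCL1: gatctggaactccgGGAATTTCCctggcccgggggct
CXCL5: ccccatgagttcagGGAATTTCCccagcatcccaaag
CXCL3: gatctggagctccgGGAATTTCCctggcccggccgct
CXCL2: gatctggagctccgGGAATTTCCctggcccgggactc
The windows lie on chromosome 4: CXCL8 at chr4:73740464-73740500, plus strand, CXCL6 at chr4:73836575-73836611, plus strand, CXCL1 at chr4:73869301-73869337, plus strand, CXCL5 at chr4:73998745-73998781, minus strand, CXCL3 at chr4:74038745-74038781, minus strand, CXCL2 at chr4:74099250-74099286, minus strand. The match began 77 to 91 bases before the start of transcription in all 6. All 6 genes fell, from -0.86 for CXCL2 to -2.08 for CXCL8 on the log2 scale. The windows of CXCL1, CXCL2 and CXCL3 are nearly the same beyond the match, and so are those of CXCL5 and CXCL6, so the 6 matches are not independent. The longer pattern GGGNNTTTCC, which overlaps the shorter form in 5 of these promoters, also occurred in CCL20 (log2 -1.53 ± 0.49, a call lost without shControl library 1, shFXR library 2 or shFXR library 3). It was in 1.95% of all promoters, 3.12% (18 of 577) of those of genes lower by at least 2-fold and 0.543% (1 of 184) of those higher by at least 2-fold. Some of the chemokines named here are among the 18. Not all patterns leaned to genes that fell. The AP-1 pattern TGANTCA was in 4.06% of all, 9.36% of the lower and 9.24% of the higher promoters. TTTGAA, a cell cycle element, was in 8.46% of all, 11.6% of the lower and 14.7% of the higher promoters. Of 14 patterns searched, the exact inverted repeat bound by FXR, AGGTCANTGACCT, was in 0 of the 11524 windows. The 13-letter pattern of the transcription factor HNF1 was also in 0 windows, and an 11-letter form of the FXR repeat was in 1. Exact patterns of 11 or 13 letters were thus too rare to compare genes that rose and fell. Their counts cannot tell whether FXR acts on these promoters. A match describes letters in this window and is not a measured binding site.

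Inflammatory cytokines and acute phase proteins fell as well. Of 18 tested cytokine and colony-stimulating factor genes 10 fell and 2 rose. IL1B, a main inflammatory cytokine, fell by 2.49 ± 0.30, IL32 by 1.82 ± 0.21 and the TNF family gene TNFSF15 by 2.05 ± 0.15. CSF1, a macrophage growth factor, had 85.2, 78 and 68.4 CPM in the shControl libraries and 48.2, 45.6 and 46.7 CPM in the shFXR libraries (log2 -0.72 ± 0.09). The 2 that rose were IL18 (0.29 ± 0.08) and IL34 (1.52 ± 0.36), the latter at a low level. Of 29 acute phase and complement genes 22 fell, 18 of them at least 2-fold, and 1 rose, the pentraxin gene PTX3 (1.05 ± 0.21), with a median of -1.62. CP, which encodes the copper-carrying ferroxidase ceruloplasmin, had 325, 154 and 224 CPM in the shControl libraries and 38.9, 30.2 and 21.3 CPM in the shFXR libraries (log2 -2.96 ± 0.21, adjusted p = 1.6e-09). The shControl libraries were spread for CP, but the groups stayed apart. The list also holds the fibrinogen chains and LCN2 described above.

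Inhibitors and carriers of the extracellular space fell too, while growth factors and coagulation proteins went both ways. Of 10 tested genes for IGF-binding proteins and tissue inhibitors of metalloproteinases, 8 fell and 0 rose (median -0.72). IGFBP4, which binds insulin-like growth factors, had 2242, 2288 and 1832 CPM in the shControl libraries and 1179, 1210.0 and 1106 CPM in the shFXR libraries (log2 -0.86 ± 0.09). IGFBP1 fell by 2.62 ± 0.28 and TIMP2 by 0.76 ± 0.07. Of 20 coagulation and fibrinolysis genes 6 rose and 8 fell, and only 3 rose without shControl library 1. F5 (-3.32 ± 0.36), PLAU (-1.46 ± 0.08) and TFPI (-1.40 ± 0.11) were among the falls, which are a clotting cofactor, the urokinase plasminogen activator and an inhibitor of the clotting start, while THBD, the thrombin receptor thrombomodulin, rose by 1.11 ± 0.14. Of 29 growth factor genes 7 rose and 10 fell, with ANGPTL4 (1.16 ± 0.12) and the EGF receptor ligand AREG (1.03 ± 0.10) higher and FGFBP1 (-2.07 ± 0.20) and GDF15 (-0.74 ± 0.10) lower. Among 27 genes of the TGF-beta family and its antagonists 7 rose and 9 fell, with BMP4 at -1.74 ± 0.14 and the BMP antagonist GREM1 at 2.42 ± 0.35. Among 22 WNT ligands and antagonists 4 rose and 10 fell, with RNF43, a ubiquitin ligase that removes WNT receptors, at -4.59 ± 0.32, WNT7B at -1.80 ± 0.12, the WNT enhancer RSPO3 at -1.67 ± 0.09 and the antagonist SFRP1 at 1.35 ± 0.13.

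The machinery of the secretory pathway differed little by comparison. Of 53 tested genes of the translocon and of COPII and COPI coats 6 rose and 11 fell, 0 of them by 2-fold, with a median of -0.12, and these counts were unstable, with 7 falls under total count scaling and 3 rises without shFXR library 2. Of 28 unfolded protein response and chaperone genes 14 fell and 2 rose (median -0.17). Among the falls were regulators of the response: TRIB3, a pseudokinase induced by stress, by 1.61 ± 0.09, XBP1, a transcription factor of secretory cells, by 0.96 ± 0.07, and ERN1, the sensor that splices XBP1, by 0.95 ± 0.14. XBP1 had 113, 119.9 and 102 CPM in the shControl libraries and 57.6, 54.3 and 59.7 CPM in the shFXR libraries.

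**Figure D3:**
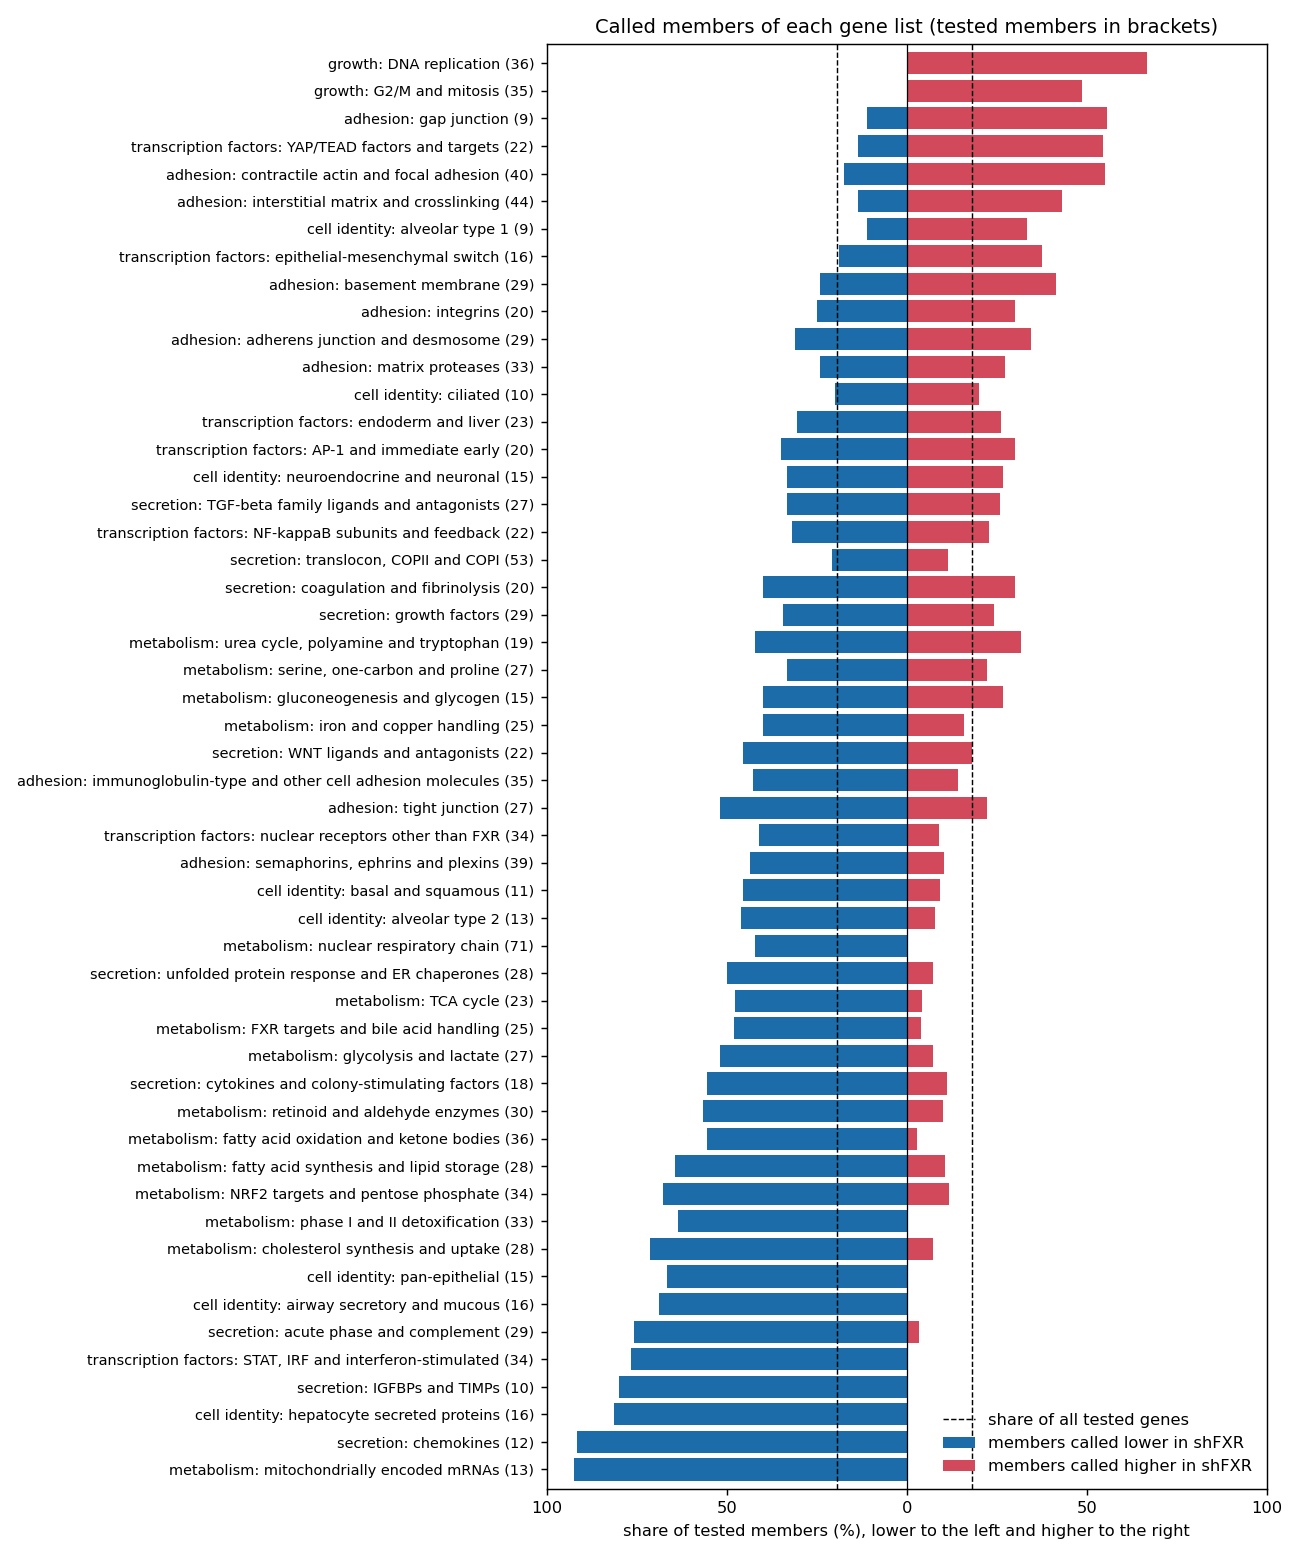
Rows are gene lists with at least 8 tested members (number in brackets), with the share of tested members called higher in shFXR sham cells to the right in red and called lower to the left in blue. Gene families, the lists of other cell types and a further growth list are not drawn. Dashed lines mark the same shares over all tested genes, 18.0% and 19.4%. Chemokines, plasma proteins, mitochondrial messenger RNAs and sterol genes extend to the left, and contractile, YAP/TEAD and replication genes to the right.

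Among metabolic genes, known targets of FXR and genes of bile acid handling were looked at first. Of 42 listed genes 25 were tested, of which 12 fell and 1 rose (median -0.23), and the list contains NR1H4 itself and the fibrinogen genes. FABP6, the ileal bile acid binding protein, was the gene that rose (0.91 ± 0.22), at a low level of 2.64, 1.51 and 1.94 CPM in the shControl libraries and 3.54, 4.41 and 3.61 CPM in the shFXR libraries. UGT2B4, which conjugates bile acids, fell from 14 to 20 counts in a shControl library to 0 to 2 counts in a shFXR library.

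Genes of cholesterol synthesis and uptake were lower as a group: of 28 tested, 20 fell and 2 rose, with a median of -0.65. MSMO1, a sterol demethylase, had 188, 172 and 163 CPM in the shControl libraries and 53.1, 59.2 and 54.2 CPM in the shFXR libraries (log2 -1.65 ± 0.09, adjusted p = 1.2e-11). Both lines were tight and far apart for MSMO1. IDI1, an isoprenoid isomerase, fell by 1.41 ± 0.07. ABCA1, which exports cholesterol, rose by 0.87 ± 0.11, and PMVK, a mevalonate kinase, by 0.34 ± 0.09. SREBF2, which encodes the main transcription factor of this pathway, had a log2 difference of -0.14 ± 0.07 (adjusted p = 0.14). SREBF1, its relative in fatty acid synthesis, fell by 0.49 ± 0.08.

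Genes of lipid synthesis and of lipid breakdown both fell more often than they rose. Of 28 genes of fatty acid synthesis and lipid storage 18 fell and 3 rose (median -0.47). SCD, the desaturase that makes oleate, fell 1.94-fold from 1967 ± 36.3 to 1012 ± 41 CPM, the desaturase gene FADS2 by 1.07 ± 0.09, ACSS2, which makes acetyl-CoA from acetate, by 1.40 ± 0.12 and ACLY, which makes it from citrate, by 0.81 ± 0.07. Of 36 genes of fatty acid oxidation and ketone bodies 20 fell and 1 rose (median -0.25). ACOX2, a peroxisomal oxidase, fell by 2.39 ± 0.24, the acyl-CoA synthetase genes ACSL5 and ACSL4 by 2.24 ± 0.16 and 1.12 ± 0.11, and PPARGC1A, a coactivator that promotes mitochondrial gene expression, by 1.62 ± 0.15. CPT1A, the entry enzyme of mitochondrial oxidation, was the gene that rose, by 0.19 ± 0.07, a small change whose call was lost when shControl library 1 or 3 or any shFXR library was left out.

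Carbohydrate and mitochondrial genes showed smaller falls. Of 27 glycolysis and lactate genes 14 fell and 2 rose, with a median of -0.25, among them ENO2 (-1.08 ± 0.16), SLC16A3 (-0.91 ± 0.09) and PGK1 (-0.70 ± 0.08), an enolase, the lactate exporter MCT4 and a glycolytic kinase, while the platelet-type phosphofructokinase PFKP rose by 0.76 ± 0.07. Of 23 TCA cycle genes 11 fell and 1 rose, with IDH1, the cytosolic isocitrate dehydrogenase, at -0.99 ± 0.07. Of 71 nuclear genes of the respiratory chain 30 fell and 0 rose, 0 of them by 2-fold, with a median of -0.23, and 12 of 13 mitochondrially encoded messenger RNAs fell (median -0.50). Both counts leaned on shControl library 2, without which 19 and 6 genes fell, and that library also had the highest mitochondrial share of counts, whose part in these results was not tested. Per kilobase of gene length, mitochondrial transcripts were the most abundant of the sham libraries, led by MT-CO1, a catalytic subunit of cytochrome oxidase. MT-CO1 had 37018, 47974 and 38281 CPM in the shControl libraries and 25919, 25096 and 27518 CPM in the shFXR libraries (log2 -0.65 ± 0.11, adjusted p = 1.2e-04), with the highest level in shControl library 2. Its level per kilobase was 26648 CPM in shControl and 16976 CPM in shFXR cells, against 7621 and 6075 CPM for FTL, the ferritin light chain, the only nuclear gene among the 10 highest, which fell (-0.33 ± 0.12), a call lost without shControl library 2 and in 11 of 21 alternative settings in all.

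Enzymes that detoxify and reduce were lower across several families. Of 34 NRF2 target and pentose phosphate genes 23 fell and 4 rose (median -0.37), whereas NFE2L2, which encodes NRF2, had a log2 difference of -0.04 ± 0.08 (adjusted p = 0.74). A549 cells carry an inactive KEAP1, the protein that marks NRF2 for breakdown, and are known for high levels of these genes. AKR1B10, an aldo-keto reductase, had 2517, 3134 and 2306 CPM in the shControl libraries and 1146, 1039 and 1227 CPM in the shFXR libraries (log2 -1.22 ± 0.10, adjusted p = 1.1e-08). Its near-identical neighbour AKR1B15 fell by 1.27 ± 0.14, and AKR1C1, which also has close copies, by 1.26 ± 0.12, so shares between copies are uncertain. GPX2, a glutathione peroxidase of epithelia, fell by 2.56 ± 0.15 and the epoxide hydrolase gene EPHX1 by 1.69 ± 0.11, while TXNRD1, a thioredoxin reductase and another NRF2 target, rose by 0.50 ± 0.10. Of 33 phase I and II genes 21 fell and 0 rose (median -0.55). By family, 10 of 22 cytochrome P450 genes, 9 of 13 glutathione S-transferase genes, 6 of 12 aldo-keto reductases and 6 of 7 UDP-glucuronosyltransferase genes fell, and 0 rose in each, although the last count was 3 without shFXR library 3 and the UGT1A genes share most of their sequence. CYP2S1, an epithelial cytochrome P450, fell by 2.61 ± 0.15. Among 30 retinoid and aldehyde genes 17 fell and 3 rose, with ALDH2, the mitochondrial acetaldehyde dehydrogenase, at 519, 500.4 and 411 CPM in the shControl libraries and 152, 139 and 142 CPM in the shFXR libraries (log2 -1.72 ± 0.09).

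Amino acid and metal metabolism held some large single differences. SAT1, the enzyme that acetylates spermidine and spermine for export, had 1462, 1243 and 1205 CPM in the shControl libraries and 411, 422 and 390.0 CPM in the shFXR libraries (log2 -1.68 ± 0.10, adjusted p = 1.4e-10). ASS1, a urea cycle enzyme that makes argininosuccinate, fell by 1.67 ± 0.11, and SMS, which makes spermine, rose by 0.65 ± 0.08, in a list of 19 genes with 6 rises and 8 falls. Of 27 genes of serine, one-carbon and proline metabolism 6 rose and 9 fell, and 3 rose without shFXR library 3. The metalloreductase genes STEAP1 and STEAP2 fell by 1.88 ± 0.09 and 1.81 ± 0.10, in a list of 25 iron and copper genes with 4 rises and 10 falls. Among 218 solute carriers 29 rose and 68 fell, with SLC23A2, a vitamin C transporter, at -2.00 ± 0.12 and SLC39A8, a zinc importer, at -1.52 ± 0.11.

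Adhesion genes were split by type: tight junction genes fell more often than they rose, adherens junction and desmosome genes went both ways, and matrix and contractile genes rose more often than they fell. Of 27 tight junction genes 14 fell and 6 rose (median -0.48). CLDN2 had 168, 150.3 and 141 CPM in the shControl libraries and 8.01, 6.64 and 6.64 CPM in the shFXR libraries, and the claudin gene CLDN12 (-0.63 ± 0.08), the scaffold gene TJP3 (-2.18 ± 0.20) and LSR, a protein of tricellular contacts (-1.63 ± 0.18), also fell. CLDN1 and TJP1, a barrier claudin and the scaffold ZO-1, rose by 0.56 ± 0.07 and 0.58 ± 0.08. Of 29 adherens junction and desmosome genes 10 rose and 9 fell. The falls included CDH1, the intestinal cadherin gene CDH17 (-1.81 ± 0.19) and JUP, which encodes plakoglobin (-0.90 ± 0.08), and the rises CDH2, which encodes N-cadherin, and VCL, which encodes vinculin (0.62 ± 0.07). CDH2 had 75.8, 70.1 and 82.4 CPM in the shControl libraries and 110.2, 108 and 99 CPM in the shFXR libraries (log2 0.48 ± 0.07, adjusted p = 4.7e-05). Of 35 other adhesion molecules 15 fell and 5 rose, with CD24, a mucin-like surface glycoprotein, at -1.84 ± 0.08, CEACAM1 at -2.61 ± 0.17 and the tetraspanin gene CD9 at -0.76 ± 0.08, against ALCAM at 0.58 ± 0.08.

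Matrix genes rose more often than they fell. The summed level of the fibroblast markers given above, some of which are matrix genes themselves, was also higher in every shFXR library than in any shControl library, and its part in this result was not tested. Of 44 genes of the interstitial matrix and its crosslinking 19 rose and 6 fell, and of 29 basement membrane genes 12 rose and 7 fell, with medians of 0.19 and 0.23. Of 26 collagen chains 12 rose and 5 fell, or 3 fell without shControl library 1 or shFXR library 1. COL5A1, a chain of fibrillar collagen V, had 75.6, 55.6 and 83.5 CPM in the shControl libraries and 161, 164 and 135 CPM in the shFXR libraries (log2 1.10 ± 0.11, adjusted p = 2.3e-07). All shFXR libraries lay above the shControl libraries, as for the collagen VI chains, while COL7A1, the anchoring fibril collagen, fell by 0.74 ± 0.12. NID1, which links laminin to collagen IV, had 6.01, 4.41 and 5.72 CPM in the shControl libraries and 21.2, 24.3 and 18.8 CPM in the shFXR libraries. The small proteoglycan gene DCN rose by 0.91 ± 0.13. The sharpest fall of the matrix list was SPP1, which encodes osteopontin, with 269.7, 257 and 248 CPM in the shControl libraries and 24.9, 26.3 and 25.7 CPM in the shFXR libraries (log2 -3.33 ± 0.08, adjusted p = 1.1e-16). Of 33 matrix proteases 9 rose (27.3%) and 8 fell (24.2%), with MMP7, an epithelial metalloproteinase, at -2.61 ± 0.11, the lysosomal protease gene CTSD at -1.88 ± 0.12 and ADAM12 at 1.34 ± 0.09. Of 20 integrins 6 rose (30%) and 5 fell (25%). Over all tested genes 18.0% rose and 19.4% fell. ITGB4, the hemidesmosome chain, had 482, 326 and 387 CPM in the shControl libraries and 216, 188 and 189 CPM in the shFXR libraries (log2 -1.01 ± 0.13).

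Genes of contractile actin and focal adhesions rose in 22 of 40 cases and fell in 7, with a median of 0.27, and 4 fell without shFXR library 3. TAGLN, an actin-bundling protein of smooth muscle, had 3.48, 4.59 and 4.14 CPM in the shControl libraries and 15.4, 14.6 and 14.2 CPM in the shFXR libraries (log2 1.86 ± 0.14, adjusted p = 1.9e-09). MYL9, a myosin light chain, rose by 2.29 ± 0.19 from a low level, PALLD, which encodes palladin, by 0.99 ± 0.08 and ACTA2, smooth muscle actin, by 0.66 ± 0.10. PDLIM5 and TNS3, which encode a Z-disc adaptor and a tensin, fell by 1.03 ± 0.08 and 0.74 ± 0.11. Of 9 gap junction genes 5 rose and 1 fell, with GJA1, a widespread connexin, at 0.32 ± 0.09 and GJC1 at 0.96 ± 0.11. Guidance molecules went the other way: of 39 semaphorin, ephrin and plexin genes 17 fell and 4 rose, with EFNA1 (-1.56 ± 0.10), SEMA3B (-1.55 ± 0.18) and EPHB6 (-1.34 ± 0.12) among the falls and SEMA3C (0.78 ± 0.10) among the rises.

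Of 1108 tested genes that the deposited table assigns to a transcription factor family, 243 were higher (21.9%) and 149 lower (13.4%), with a median of 0.07. At least 2-fold, 19 were higher and 37 lower, against 1.81% and 5.58% of all tested genes, so large falls were a smaller share among these genes. Of 475 C2H2 zinc finger genes 92 rose (19.4%) and 22 fell (4.63%), so that rises were near the share over all tested genes (18.0%) and falls below it (19.4%). Of 10 E2F genes 6 rose and 0 fell, of 13 ARID genes 7 and 0, and of 10 T-box genes 5 and 0. Of 17 genes of the thyroid receptor-like group, to which NR1H4 belongs, 10 fell and 1 rose, of 7 STAT genes 5 fell and 0 rose, and of 6 IRF genes 4 fell and 0 rose.

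Of 23 tested factors of endoderm and liver 6 were higher (26.1%) and 7 lower (30.4%), against 18.0% and 19.4% of all tested genes. At least 2-fold, 2 were higher and 3 lower. The endoderm and liver factors named next were all lower. HNF4A, a nuclear receptor of liver and gut, fell by 0.53 ± 0.13, FOXA1, a pioneer factor of endoderm, by 0.47 ± 0.11 and CEBPA by 0.73 ± 0.15. FOXA2 (-0.25 ± 0.10) was called lower in the reported fit but not in 17 of 21 alternative settings. CEBPD, a factor of acute phase genes, had 152, 150.3 and 118 CPM in the shControl libraries and 63.8, 61.8 and 65.2 CPM in the shFXR libraries (log2 -1.14 ± 0.09). SOX9 and SOX2, factors of airway development, fell by 1.06 ± 0.11 and 1.66 ± 0.20. Among 34 nuclear receptors other than FXR 14 fell and 3 rose, or 1 rose without shFXR library 2. NR1H2 and NR1H3, the oxysterol receptors LXR beta and LXR alpha, fell by 1.18 ± 0.08 and 0.77 ± 0.10. NR1H2 had 115, 128 and 103 CPM in the shControl libraries and 50.1, 48.2 and 54.3 CPM in the shFXR libraries. NR3C1, the glucocorticoid receptor, rose by 0.51 ± 0.09. Of 30 HOX genes 7 fell (23.3%, near the 19.4% of all tested genes) and 2 rose, and 2 of the falls were at least 2-fold. HOXB8 had 18.3, 17.3 and 17.7 CPM in the shControl libraries and 3.54, 3.19 and 1.78 CPM in the shFXR libraries (log2 -2.65 ± 0.17, adjusted p = 4.3e-10). Its neighbours HOXB5 and HOXB6 were at -1.24 ± 0.19 and -0.78 ± 0.16.

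Of 16 tested regulators of the epithelial-mesenchymal switch 6 were higher (37.5%, against 18.0% of all tested genes). Another 3 were lower (18.75%, near the 19.4% of all tested genes). SNAI2, which represses epithelial genes, had 2.53, 2.90 and 2.68 CPM in the shControl libraries and 6.35, 8.44 and 6.53 CPM in the shFXR libraries (log2 1.40 ± 0.19, adjusted p = 9.9e-06). ZEB2, a repressor of the same kind, rose by 0.91 ± 0.17, while ZEB1 had a log2 difference of 0.12 ± 0.12 (adjusted p = 0.48). ELF3, an epithelial ETS factor, had 120.5, 153 and 125 CPM in the shControl libraries and 60, 56.2 and 60.3 CPM in the shFXR libraries (log2 -1.17 ± 0.08, adjusted p = 1.1e-09). GRHL3, a factor of epithelial barriers, rose by 1.02 ± 0.26 from a low level. The mesenchymal filament gene VIM had a log2 difference of 0.25 ± 0.10 (adjusted p = 0.052) and was called higher in 10 of 21 alternative settings. Of 22 YAP and TEAD factors and target genes 12 rose and 3 fell (median 0.30). ANKRD1, a nuclear ankyrin repeat protein, had 3.38, 4.95 and 4.83 CPM in the shControl libraries and 18.8, 17.3 and 32.6 CPM in the shFXR libraries (log2 2.39 ± 0.28, adjusted p = 1.6e-06), with shFXR library 3 the highest. CCN2, a matricellular target gene, rose by 1.00 ± 0.18, the receptor kinase gene AXL by 0.66 ± 0.07 and YAP1 itself by 0.28 ± 0.07, whereas its relative WWTR1, which encodes TAZ, fell by 0.58 ± 0.08.

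Of 20 AP-1 and immediate early genes 6 rose and 7 fell. FOS had 73.7, 66.1 and 91.4 CPM in the shControl libraries and 40.7, 17 and 19.7 CPM in the shFXR libraries, a log2 difference of -1.58 ± 0.33, and JUN rose by 0.78 ± 0.12 and FOSL2 by 0.63 ± 0.08. MYC, a growth-promoting factor, had 229, 253 and 260.2 CPM in the shControl libraries and 463, 482 and 478 CPM in the shFXR libraries (log2 0.94 ± 0.08, adjusted p = 1.1e-08). Of 13 KLF genes 7 rose and 1 fell, with KLF6 at 1.16 ± 0.10 and KLF2 at -1.36 ± 0.28. Of 22 NF-kappaB subunit and feedback genes 5 rose (22.7%) and 7 fell (31.8%), against 18.0% and 19.4% of all tested genes. As few as 3 rises (without shControl library 3 or shFXR library 3) and 4 falls (without shControl library 1, shFXR library 1 or shFXR library 2) were left. RELA, the main activating subunit, had a log2 difference of 0.12 ± 0.08 (adjusted p = 0.25), NFKB2 rose by 0.53 ± 0.09 and the nuclear cofactor gene BCL3 fell by 1.15 ± 0.11.

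**Figure D4:**
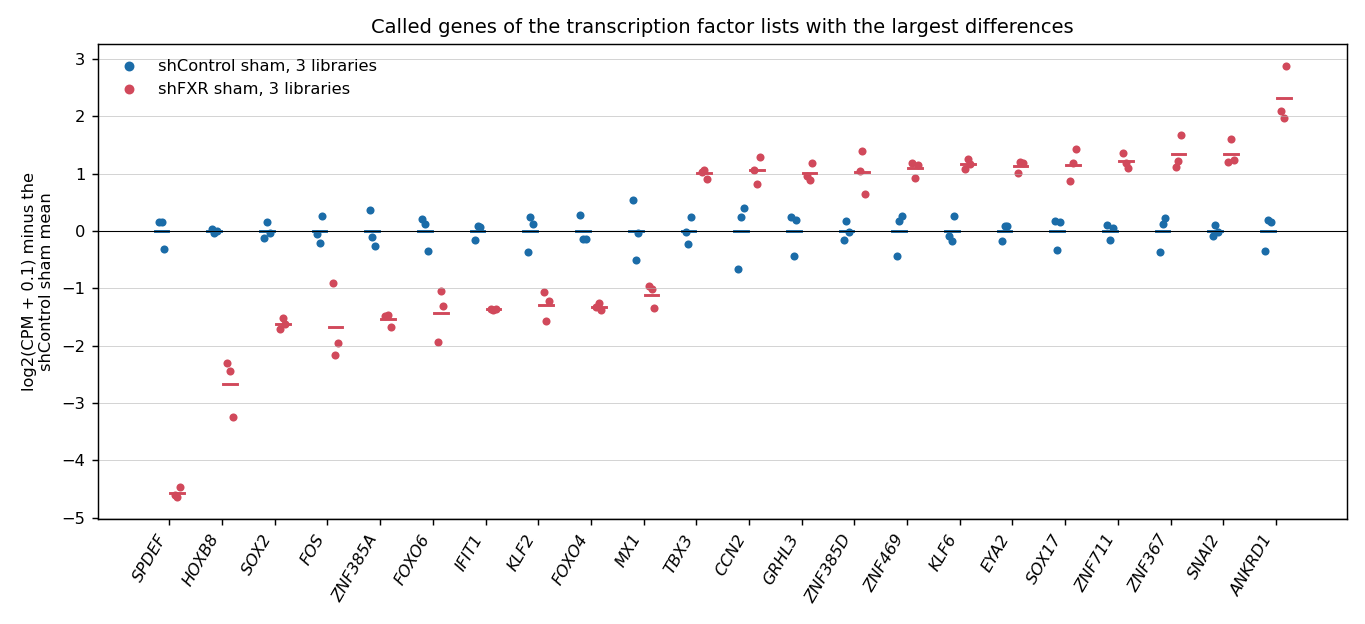
For 12 called higher and 10 called lower genes among those with the largest differences in the transcription factor lists and families, dots show log2(CPM + 0.1) in each sham library minus the mean of the 3 shControl libraries, blue for shControl and red for shFXR, with bars at the group means. SPDEF lies lowest and ANKRD1 highest, and the lines do not overlap for any gene drawn. The lists also hold target genes that are not factors, such as IFIT1, MX1, CCN2 and ANKRD1.

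Interferon-stimulated genes and their factors were lower in shFXR cells. Interferons act through STAT and IRF factors, which bind a repeated element in the promoters of antiviral genes. Of 34 tested genes 26 fell and 0 rose, 10 of the falls being at least 2-fold, with a median of -0.82. IFIT1, an antiviral RNA-binding protein, had 17.2, 20.4 and 20.2 CPM in the shControl libraries and 7.40, 7.38 and 7.45 CPM in the shFXR libraries (log2 -1.38 ± 0.12, adjusted p = 1.8e-08). OAS1, an enzyme that senses double-stranded RNA, had 37, 33.3 and 28.1 CPM in the shControl libraries and 13.6, 12.3 and 15.6 CPM in the shFXR libraries (log2 -1.24 ± 0.12). IRF1, a factor that activates such genes, had 23.2, 23.4 and 20.4 CPM in the shControl libraries and 9.78, 9.82 and 8.58 CPM in the shFXR libraries (log2 -1.25 ± 0.10). The 3 genes had no overlap between the lines, at moderate or low levels in both. STAT5B fell by 0.86 ± 0.08, while STAT3, which also serves acute phase genes, had a log2 difference of -0.02 ± 0.07 (adjusted p = 0.87). Antigen presentation genes that interferon also induces were lower, with 5 of 7 tested HLA genes and the immunoproteasome genes PSMB10 (-1.10 ± 0.18) and PSMB8 (-0.63 ± 0.10) among the falls, though 3 HLA genes fell without shFXR library 1 and HLA genes have close copies.

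The promoters of 7 of the genes that fell are shown around the letters that were searched for. The letters TTTCNNTTTC, or GAAANNGAAA on the other strand, are the core of the interferon response element. They were found before the start of 13 of the 27 genes of the list with a RefSeq promoter, and in 2.31% of all 11524 promoters. The list is of interferon-stimulated genes, so this excess describes the list and not the difference between the lines. Among all promoters, the share with a match was 4.33% (25 of 577) for genes lower by at least 2-fold and 0.543% (1 of 184) for those higher by at least 2-fold. Some of the genes shown here are among the 25. Capitals mark the match nearest to the start, and up to 14 bases are shown on either side.
IFIT1: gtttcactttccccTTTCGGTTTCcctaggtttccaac
IFIT3: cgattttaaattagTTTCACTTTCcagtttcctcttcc
IFI6: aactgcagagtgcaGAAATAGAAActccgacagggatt
IFI27: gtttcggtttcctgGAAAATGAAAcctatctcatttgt
IFI44: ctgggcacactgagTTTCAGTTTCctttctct
IFI44L: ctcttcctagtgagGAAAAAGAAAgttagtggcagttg
ISG20: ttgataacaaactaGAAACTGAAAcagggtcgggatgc
In GRCh38.p14 these windows are IFIT1 at chr10:89392506-89392543, plus strand, IFIT3 at chr10:89327861-89327898, plus strand, IFI6 at chr1:27672262-27672299, minus strand, IFI27 at chr14:94110627-94110664, plus strand, IFI44 at chr1:78649757-78649788, plus strand, IFI44L at chr1:78620361-78620398, plus strand, ISG20 at chr15:88638933-88638970, plus strand. The matches began 18 to 122 bases before the start. These 7 genes fell by between 0.63 (IFI44L) and 2.09 (IFI27) on the log2 scale, and they were picked with their values known. Of the 13 genes with a match 10 fell, and OAS3, DDX60 and SAMD9 did not pass the test (log2 -0.07 ± 0.12, -0.49 ± 0.23 and 0.17 ± 0.14). That share is close to the 26 of 34 (76.5%) that fell in the whole list, so the count does not link the match to the fall.

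Genes of DNA replication and mitosis were higher in shFXR sham cells. Of 36 DNA replication genes 24 rose and 0 fell (median 0.53), and of 35 G2/M and mitosis genes 17 rose and 0 fell (median 0.42), none by 2-fold in the latter list. MCM2, a subunit of the replicative helicase, had 10.9, 16.1 and 14.4 CPM in the shControl libraries and 24.6, 24.5 and 31.5 CPM in the shFXR libraries (log2 0.97 ± 0.14, adjusted p = 2.0e-05). MKI67, the proliferation marker, had 40, 54.8 and 61.7 CPM in the shControl libraries and 82.3, 68.1 and 108 CPM in the shFXR libraries (log2 0.72 ± 0.18, adjusted p = 0.0034). The libraries of a line were widely spread for MKI67, with no overlap between the lines. The summed level of the mitosis list ranged from 719 to 980 CPM in shControl and from 1022 to 1371 CPM in shFXR libraries. Without shFXR library 3 the counts were 15 and 4 rises, and without shControl library 1 mitosis genes rose in 6 cases. The growth arrest gene GADD45A rose by 1.05 ± 0.08, the DNA repair gene DDB2 by 0.74 ± 0.08 and the nuclease gene AEN by 0.85 ± 0.07, while TRIM22 had a called log2 difference of -1.38 ± 0.14. CDKN1A, the gene of p21, had a log2 difference of 0.16 ± 0.07 (adjusted p = 0.068), and was called higher in 6 of 21 alternative settings. Of 79 cytosolic ribosomal protein genes 19 rose and 1 fell, but the count of rises was 55 without shControl library 2, 52 with total count scaling and 10 without shControl library 3 or shFXR library 2.

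Smaller shares of lincRNAs, antisense genes and processed pseudogenes were called than of all tested genes, of which 18.0% were higher and 19.4% lower. Of 701 tested lincRNAs 58 were higher (8.27%) and 114 lower (16.3%), of 770 antisense genes 32 were higher (4.16%) and 115 lower (14.9%), and of 411 processed pseudogenes 53 were higher (12.9%) and 22 lower (5.35%). At least 2-fold, 27 lincRNAs were higher and 65 lower, 8 antisense genes higher and 73 lower, and 5 processed pseudogenes higher and 13 lower. Both shares of lincRNAs, and the share of falls of antisense genes, were then above the 1.81% (higher) and 5.58% (lower) of all tested genes. LINC00707, a long intergenic RNA on chromosome 10 from 6779549 to 6879450, had 2.64, 2.48 and 2.78 CPM in the shControl libraries and 11, 15.2 and 14.6 CPM in the shFXR libraries (log2 2.37 ± 0.16). CRYZL2P, a transcribed pseudogene, fell by 1.58 ± 0.16, and RPL12P14, a pseudogene of a ribosomal protein gene, rose by 1.78 ± 0.14, where reads of RPL12 (0.38 ± 0.08) could have been assigned to it. The sources used here do not state whether counting used the strand, so reads of antisense genes and their partners cannot be told apart. Along the autosomes and the X chromosome, medians ranged only from -0.09 for chromosome 21 to 0.06 for chromosome 18. Of 307 blocks of 50 neighbouring tested genes, 12 had a median below -0.2 and 5 a median above 0.2. The lowest, with -0.34, ran from 0.2 to 1.3 Mb of chromosome 11, where MUC5AC and MUC5B lie, and held 23 genes that fell and 0 that rose, but between the irradiated lines its median was 0.00. The highest, with 0.29, ran from 157.3 to 173.6 Mb of chromosome 5 and had a median of 0.22 in the irradiated lines.

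The same 2 lines were measured a second time in the irradiated libraries, which share no library with the sham comparison, although they share the cell lines and the estimate of spread. There 6557 genes were called (40.8%), 3138 higher (19.5%) and 3419 lower (21.3%), and 3499 genes were called in both comparisons. Of these, 3271 had the same direction, 1417 higher and 1854 lower, and 228 the opposite one. The calls of the same direction were 54.5% of the sham calls and 49.9% of the irradiated calls, and they covered 819 (69.1%) of the 1185 sham calls of at least 2-fold. Across the 16053 tested genes the log2 differences correlated with a Pearson's r of 0.65 and a Spearman's rho of 0.49, as a description, since genes are not independent replicates and pairs of lines are shared. The falls of S100A9 (-5.16 ± 0.33 in irradiated cells), SPDEF (-4.57 ± 0.25), MUC5B (-4.63 ± 0.32), CLDN2 (-5.06 ± 0.12), CCL2 (-4.06 ± 0.13) and SPP1 (-3.00 ± 0.08) and the rises of COL6A2 (4.42 ± 0.12), COL6A1 (2.88 ± 0.09), HMGA2 (2.34 ± 0.10) and SNAI2 (1.67 ± 0.18) were all called there too.

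By group, matrix genes differed in more cases after radiation, with 32 of 44 interstitial matrix genes higher and 1 lower, and 19 of 29 basement membrane genes higher and 0 lower. Of the 12 chemokines 9 were lower and 0 higher, of the 34 interferon genes 23 were lower and 1 higher, and of the 28 cholesterol genes 21 were lower and 5 higher. Pan-epithelial genes were lower in 6 of 15 and higher in 1 of 15 cases. The growth lists went the other way: mitosis genes, with 17 of 35 higher in sham cells, were lower in 33 and higher in 0 of 35 cases in irradiated cells, and DNA replication genes were lower in 14 and higher in 2 of 36. The difference between the 2 line differences was itself called for 2405 genes (15.0%), of which 1329 were called between the sham lines. MKI67 was one such gene, with -1.90 ± 0.24 in irradiated cells (difference -2.62 ± 0.30, adjusted p = 7.2e-05), and ANKRD1 another, with -0.34 ± 0.25 (difference -2.73 ± 0.38, adjusted p = 3.0e-04).

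**Figure D5:**
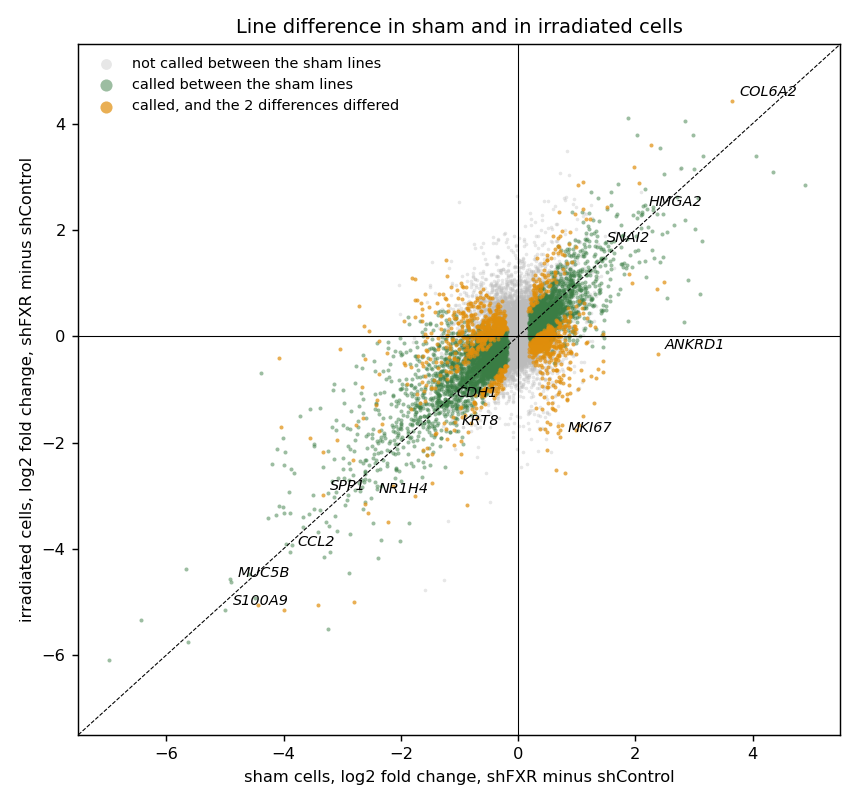
Each point is a tested gene, with its log2 fold change, shFXR minus shControl, in sham cells on the horizontal axis and in irradiated cells on the vertical axis, and the dashed line marks equal differences. Green genes were called between the sham lines, orange genes were called and also had a called difference between the sham and irradiated values, and grey genes were not called between the sham lines. MUC5B and S100A9 lie near the dashed line, COL6A2 lies above it, and MKI67 and ANKRD1 lie below it.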

How the data were processed

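Poly-T selected RNA of A549 cells was sequenced after random-hexamer cDNA synthesis, per the labels' protocols. The authors deposited 1 table of raw read counts for 58735 genes and 12 libraries, with gene positions, lengths, biotypes and factor families. The submitters' processing notes name build hg38 and DESeq2 1.20.0, without a step. The sources used here do not give the aligner, counter and strand setting.

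Libraries were grouped by title. Counts were filtered with edgeR's filterByExpr (minimum count 10, minimum total 15), scaled by TMM and fitted over 4 groups and 12 libraries with the quasi-likelihood test of edgeR 4.0.16 in R 4.3.3. The contrasts were the sham lines, the irradiated lines and their difference, with Benjamini-Hochberg adjustment over 16053 genes. All groups entered the fit to share 1 estimate of spread, with 8 residual degrees of freedom. DESeq2 1.42.0, limma 3.58.1, other scalings and filters, a replicate block and leaving out each library were alternatives. The fit was tested on simulated counts.

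Genes were named by rule: a fixed set of regulators, the 20 protein-coding and 6 other genes each way with the largest change at a mean of at least 5 CPM and no overlap, for each list or family the 4 calls of lowest adjusted p at most, plus 2 at most in the rarer direction, the 12 factors each way with the largest change, and the 10 highest counts per kilobase. KRT7, some members of marker lists, the collagen and paralog neighbours and genes shown for their promoters were chosen after their values were seen. The comparison, the gene lists and the motifs were chosen with earlier results of these data known. Results for some genes are not reported here.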

Additional observations from a re-analysis of the deposited data

Results flagged for a closer look

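For some genes named above, the difference between the lines was itself different in the irradiated libraries, by edgeR's quasi-likelihood test of the irradiated minus the sham log2 difference at an adjusted p below 0.05. The values that follow are that difference of log2 differences. It was called for 15.0% of all tested genes, so a gene in these sentences is no rare case.

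Among genes whose line difference was smaller in irradiated cells and kept its sign, a rise shrank for MCM2 -0.83, ZBTB16 -0.73, THBD -0.68, CAV1 -0.52, CAV2 -0.35 and AEN -0.32. Among genes of the same kind, a fall shrank for SPP1 0.34, SLC16A3 0.39, SAT1 0.43, TIMP2 0.47, BCL3 0.48, PLAU 0.48, JUP 0.49, EGFL7 0.53, CEBPD 0.56, EFNA1 0.64, IGFBP4 0.69, MUC1 0.69, IFI6 0.72, ENO2 0.76, HOXB8 1.11, CD14 1.20, IL32 1.25, SEMA3B 1.27 and PRG4 1.64.

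A fall in sham cells was deeper in irradiated cells for LCN2 -1.66, GPX2 -0.76, KRT8 -0.67, CLDN2 -0.63, CXCL5 -0.56, MMP7 -0.55, WWTR1 -0.55, FGB -0.53, AKR1B10 -0.52, TNS3 -0.50, IDI1 -0.42 and IDH1 -0.37. A rise in sham cells was higher in irradiated cells for CPT1A 0.32, CDH2 0.38, NFKB2 0.43, COL6A2 0.77, COL6A1 0.81, NID1 1.21 and COL5A1 1.29.

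The fitted difference was above 0 in sham and below 0 in irradiated cells for ANKRD1 -2.73, MKI67 -2.62, SFTPD -1.54, TXNRD1 -0.84 and YAP1 -0.37. It was below 0 in sham and above 0 in irradiated cells for FOXA2 0.69, FAP 1.26, COL7A1 1.39 and COL1A1 1.48. Of the genes with opposite signs, the irradiated difference of ANKRD1 and of YAP1 was not called. Genes not called between the sham lines but with a called difference of differences were SAMD9 -0.71, SREBF2 0.35 and VIM 0.85.

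In the mitosis list, which holds MKI67, 17 of 35 genes were called higher between the sham lines and 33 of 35 were called lower between the irradiated lines.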

How the results depend on the processing

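Across 21 alternative settings the number of genes called between the sham lines stayed within 1.5 times the reported 6003. It was 5865 with DESeq2, 6061 with RLE scaling, 6285 with total count scaling, 5944 without a filter, 4973 of 10980 genes with a mean of at least 5 CPM, 5290 with only the sham libraries in the fit, 5987 without mitochondrial genes and, in an alternative added after seeing the data, 6730 with library weights in limma. Leaving out each of the 12 libraries in turn gave 5000 to 6252 calls, 2398 to 3207 of them higher and 2567 to 3179 lower. The log2 difference of NR1H4 lay between -2.28 and -2.67 over all settings, and the same-direction calls shared with the irradiated lines between 2838 and 4092. Total count scaling moved the median of all genes by 0.079 on the log2 scale.

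With the replicate number as a block 5889 genes were called. The sources used here do not state that libraries with the same number were paired, so no pairing was used. Deviations of libraries with the same number correlated at 0.0733, -0.0746 and 0.0127, which cannot settle whether they were handled together.

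Of 230 named genes, 16 lost or gained a call in a setting and 0 reversed: CCL20, CDKN1A, COL1A1, CPT1A, DDX60, ESAM, FAP, FOXA2, FTL, ITGAM, LUM, PECAM1, RELA, SFTPD, SREBF2 and VIM. Calls counted by list and direction moved by over 1.5 times, or to or from 0, in 246 of 3906 cases, each case being 1 count in 1 setting. Of the 186 counts, 83 moved in this way in at least 1 setting, and the causes were not tested.

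The irradiated and sham comparisons share the cell lines, each hairpin had 1 line, and a group had 3 libraries, so p-values measure the spread between libraries of these lines. Genes under the count minimum were not tested, and falls that end near 0 counts are bounded by depth.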
